A study of Oryza sativa with 18 samples.

Results

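Starch in the rice flag leaf, the uppermost leaf and the main source of sugar for the grain, is made by a short chain of enzymes, and the transcripts of 10 genes for these enzymes were followed here. They were chosen by gene identifier, with no threshold on a measured value, from the 38993 genes listed. AGPL1 (Os03g0735000) and AGPL3 (Os05g0580000) code for large subunits of ADP-glucose pyrophosphorylase, and AGPS1 (Os09g0298200) and AGPS2 (Os08g0345800) for its small subunits. SSI (Os06g0160700) and SSIIb (Os02g0744700) are soluble starch synthases, and GBSSI (Os06g0133000, WX1 in the table) and GBSSII (Os07g0412100) granule-bound ones. BEI (Os06g0726400, SBE1 in the table) and BEIIa (Os04g0409200) are branching enzymes. By a RefSeq gene table, SSI, GBSSI and BEI lie on chromosome 6, AGPL1 on 3, BEIIa on 4, AGPL3 on 5, AGPS2 on 8 and AGPS1 on 9. RNA came from field-grown plants of the hybrid Hanyou73 and of its parents Hanhui3 and Huhan7B at grain filling. Within each genotype, plants kept watered were compared with plants whose irrigation was stopped in early grain filling (drought). This gave 6 groups of 3 libraries, and each library was made from pooled flag leaves of several plants of a plot. The labels do not say whether the libraries of a group came from separate plots, so a difference between plots cannot be told apart from drought or genotype, and p-values measure the spread between these pools.

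Plants make ADP-glucose, the sugar donor of starch, with ADP-glucose pyrophosphorylase, an enzyme built of large and small subunits whose step is held to limit the rate of starch synthesis. Starch synthases lengthen the glucan chains and branching enzymes introduce the branches of amylopectin, while granule-bound synthases make amylose. In leaves the starch is transitory, being stored in chloroplasts by day and broken down by night, and rice uses partly different isoforms in leaf and endosperm.

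Levels are given in FPKM, fragments per kilobase of transcript scaled to the sequenced total, a scale on which genes of different length can be compared. The depth, estimated from the steps between low values, was 13.2 to 16.5 M fragments per library. Changes are differences in log2(FPKM + 1) with the standard error of the fit, tested by limma over 22590 genes with Benjamini-Hochberg adjustment at a threshold of 0.05. Of the 10 genes, 9 were at 1 FPKM or more in all 18 libraries and were tested, and GBSSI reached 1 FPKM in none. The leaf label was checked against 32 genes for Rubisco small subunits and chlorophyll-binding proteins, of which 26 were tested and whose summed level ran from 17491 to 94442 FPKM. Among 54 genes for seed storage proteins and grain starch enzymes, 5 reached 1 FPKM in any library and 29 were listed at 0 throughout. Their summed level was 132 to 172 FPKM in all groups, most of it from 2 genes. Os05g0116000, annotated as glutelin type-D 1, held 78.1 to 118 FPKM by group mean, and the pyrophosphorylase gene AGPL2 29.4 to 63.2 FPKM.

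Under drought most of the tested starch genes rose in the hybrid and in Huhan7B, and in Hanhui3 they moved in both directions. In the hybrid 8 rose and 1, SSIIb, fell, where 70.7% of all tested genes were called, 45% upward and 25.7% downward. In Hanhui3 4 rose and 3 fell, against 53.6% of all genes called, with 35.1% up and 18.4% down. In Huhan7B 7 rose and 1 fell, against 53.3% called, with 21.2% up and 32.1% down. The median change of the 9 genes was 0.79 in the hybrid, 0.072 in Hanhui3 and 0.67 in Huhan7B, beside 0.18, 0.10 and -0.065 over all tested genes. Scaling libraries by their median ratio moved these medians of all genes to 0.019, 0.0043 and 0.0075 and the share of upward calls among all calls from 63.6% to 51.1% in the hybrid, 65.6% to 50.3% in Hanhui3 and 39.7% to 51.8% in Huhan7B. The 9 genes then divided as 8 up and 1 down, 4 and 3, and 8 and 1. In bulk leaf RNA, a change in the share of a cell type and a change in RNA per cell cannot be told apart.

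**Figure D1:**
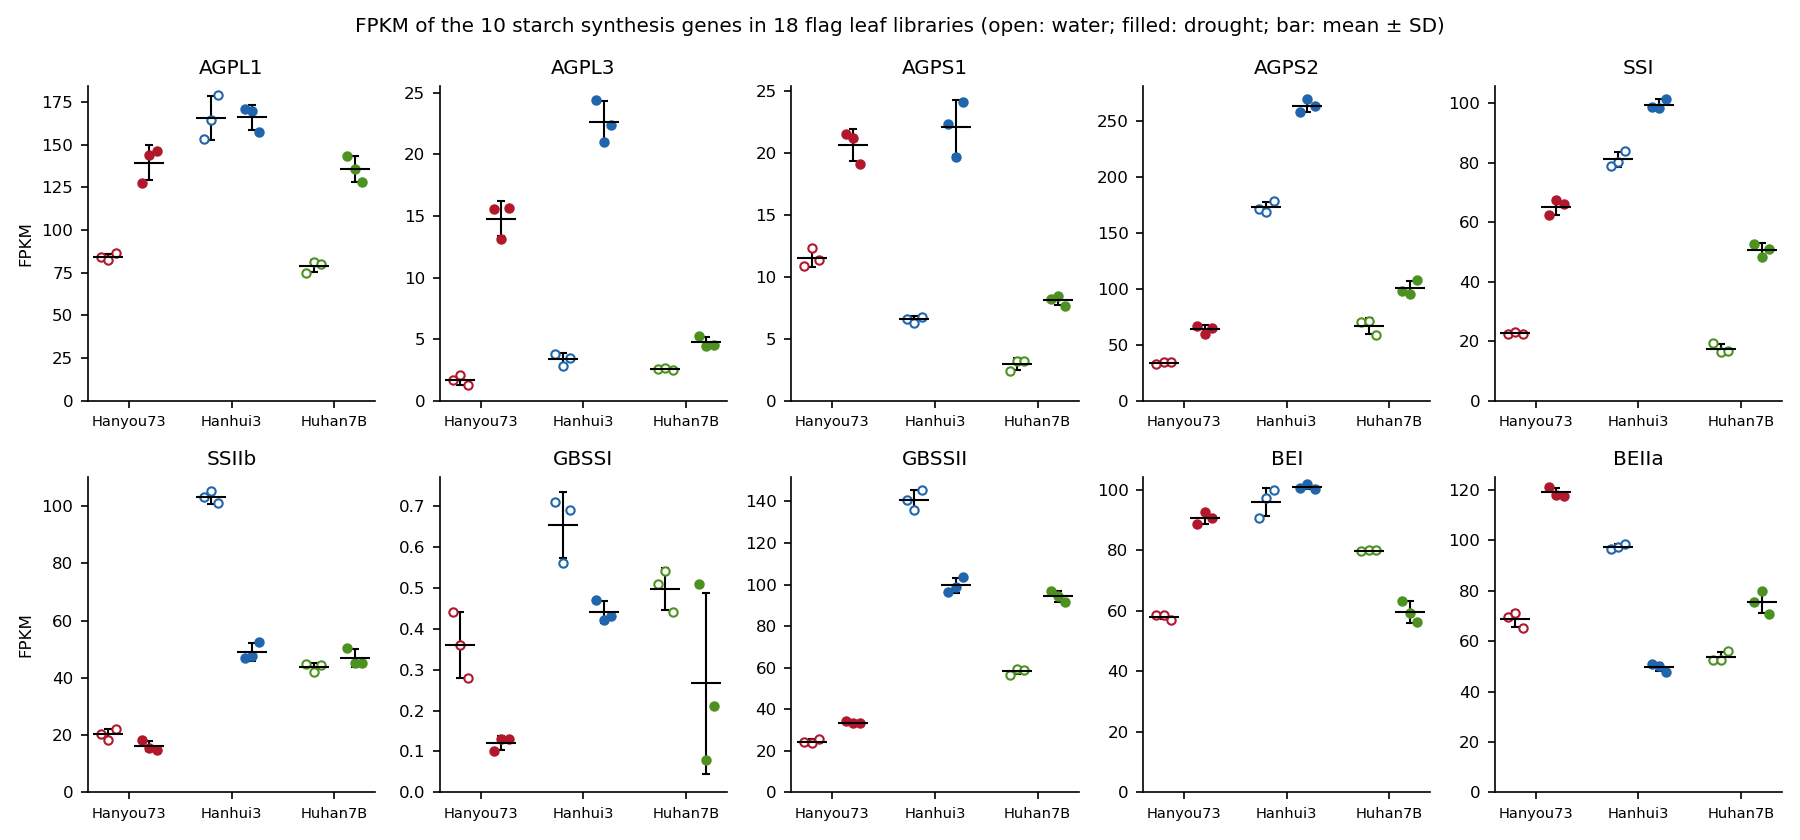
Level of each of the 10 genes in every library, in FPKM, with water and drought side by side within each genotype; open points are watered and filled points droughted libraries, and bars the mean ± SD of 3. Hanhui3 in water lies above both other watered groups for SSI, SSIIb and GBSSII, and GBSSI stays under 1 FPKM in all 18 libraries.

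AGPL3 had the largest drought response of the 9 genes in the hybrid and in Hanhui3. In Hanyou73 its libraries held 1.72, 2.12 and 1.32 FPKM in water and 15.5, 13.1 and 15.7 FPKM under drought. Hanhui3 had 3.82, 2.86 and 3.52 FPKM in water and 24.4, 21.0 and 22.4 FPKM under drought, and Huhan7B had 2.57, 2.70 and 2.51 FPKM in water and 5.23, 4.45 and 4.55 FPKM under drought. In each genotype every drought library was above every watered one, and the droughted parents differed widely. The mean rose 8.59-fold in the hybrid (log2 change 2.54 ± 0.11, adjusted p = 1.2e-11) and 6.64-fold in Hanhui3 (2.43 ± 0.11, adjusted p = 1.14e-10). In Huhan7B it rose 1.83-fold (0.67 ± 0.11, adjusted p = 0.000107). With a pseudocount of 1 the log2 change understates the change of a gene this low.

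AGPL1, the other large subunit gene of the set and the more abundant of the pair in all groups, did not follow AGPL3. Hanyou73 had 84.0, 82.5 and 86.3 FPKM in water and 128, 144 and 146 FPKM under drought, without overlap. Hanhui3 had 153, 164 and 179 FPKM in water and 171, 169 and 158 FPKM under drought, with the groups overlapping. Huhan7B had 75.2, 81.3 and 80.3 FPKM in water and 143, 136 and 128 FPKM under drought, again without overlap. AGPL1 rose in the hybrid by 0.72 ± 0.062 (adjusted p = 4.55e-08) and in Huhan7B by 0.77 ± 0.062 (adjusted p = 4.04e-08). In Hanhui3, where it was already high in water, the change was 0.0062 with a 95% interval of -0.13 to 0.14 (adjusted p = 0.955).

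Both small subunit genes rose in all 3 genotypes. AGPS1 was the less abundant one, at 10.9, 12.3 and 11.3 FPKM in water and 21.5, 21.2 and 19.1 FPKM under drought in Hanyou73. It stood at 6.63, 6.30 and 6.79 FPKM in water and 22.3, 19.7 and 24.1 FPKM under drought in Hanhui3 and at 2.38, 3.25 and 3.21 FPKM in water and 8.18, 8.49 and 7.66 FPKM under drought in Huhan7B. No water and drought libraries of a genotype overlapped, and the 2 droughted groups with most AGPS1, Hanhui3 and the hybrid, overlapped each other. AGPS1 rose by 0.79 ± 0.092 in the hybrid (adjusted p = 1.52e-06), by 1.60 ± 0.092 in Hanhui3 (adjusted p = 1.28e-09) and by 1.21 ± 0.092 in Huhan7B (adjusted p = 2.13e-08).

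AGPS2, known in rice to give a leaf plastid form and an endosperm form through different first exons, was measured as a single value per gene. Hanyou73 had 32.7, 34.5 and 35.1 FPKM in water and 67.1, 60.2 and 64.8 FPKM under drought. Hanhui3 had 171, 169 and 179 FPKM in water and 258, 269 and 264 FPKM under drought, and Huhan7B had 70.4, 71.6 and 58.9 FPKM in water and 98.1, 95.3 and 108 FPKM under drought. The drought libraries were the higher ones throughout, and the hybrid under drought only reached the range of watered Huhan7B. AGPS2 rose by 0.89 ± 0.066 in the hybrid (adjusted p = 6.87e-09), by 0.61 ± 0.066 in Hanhui3 (adjusted p = 1.64e-06) and by 0.58 ± 0.066 in Huhan7B (adjusted p = 1.99e-06).

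SSI, the synthase that extends short amylopectin chains, rose in every genotype. Hanyou73 had 22.6, 23.3 and 22.6 FPKM in water and 62.3, 67.3 and 66.0 FPKM under drought. Hanhui3 had 79.0, 80.2 and 84.0 FPKM in water and 98.8, 98.2 and 101 FPKM under drought, and Huhan7B had 19.5, 16.5 and 16.8 FPKM in water and 52.7, 48.3 and 50.9 FPKM under drought. No groups overlapped, and Hanhui3 in water was above both other genotypes under drought. The mean rose 2.86-fold in the hybrid (log2 change 1.47 ± 0.054, adjusted p = 1.13e-12), 2.88-fold in Huhan7B (1.48 ± 0.054, adjusted p = 3.84e-12) and 1.23-fold in Hanhui3 (0.29 ± 0.054, adjusted p = 0.000281).

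SSIIb, the form of synthase II found mainly in rice leaves, was the 1 tested gene that rose in no genotype. Hanyou73 had 20.4, 18.1 and 22.1 FPKM in water and 18.1, 15.6 and 14.7 FPKM under drought, with both groups sharing the value 18.1. Hanhui3 had 103, 105 and 101 FPKM in water and 47.0, 47.7 and 52.6 FPKM under drought, which is a fall to less than the lowest watered library. Huhan7B had 44.7, 41.9 and 44.6 FPKM in water and 50.4, 45.3 and 45.1 FPKM under drought, where the drought libraries were slightly the higher. SSIIb fell by 1.06 ± 0.077 on the log2 scale in Hanhui3 (adjusted p = 2.03e-08) and by 0.31 ± 0.077 in the hybrid (adjusted p = 0.00214). In Huhan7B the change was 0.10 with a 95% interval of -0.067 to 0.26 (adjusted p = 0.309), and with median-ratio scaling it was 0.21 (adjusted p = 0.0327). The next gene in the table, Os02g0744800, carries the same product name and stood at 4.38 to 29.0 FPKM, so how reads were divided between the pair is uncertain. Its own drought change was -0.15 ± 0.17 in Hanhui3 (adjusted p = 0.475) and 0.43 ± 0.17 in Huhan7B (adjusted p = 0.0411).

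GBSSII, the granule-bound synthase of leaves and other non-storage tissue, moved in opposite directions in the parents. Hanyou73 had 24.0, 23.6 and 25.8 FPKM in water and 34.2, 33.4 and 33.2 FPKM under drought. Hanhui3 had 141, 136 and 145 FPKM in water and 96.2, 98.9 and 104 FPKM under drought, and Huhan7B had 56.7, 59.4 and 58.9 FPKM in water and 97.0, 94.6 and 91.7 FPKM under drought. Water and drought libraries did not overlap in any genotype, and the droughted parents, starting far apart, ended with overlapping libraries. GBSSII rose by 0.69 ± 0.041 in Huhan7B (adjusted p = 1.17e-09) and by 0.44 ± 0.041 in the hybrid (adjusted p = 9.19e-08), and its change in Hanhui3 was -0.49 ± 0.041 (adjusted p = 7.87e-08), a fall.

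GBSSI, the product of the Waxy locus that makes amylose in the grain, was nearly absent from these leaves. Its libraries ranged from 0.08 to 0.71 FPKM, an estimated 2.1 to 20.5 fragments. By group mean it made up 0.279 to 1.46% of the summed FPKM of GBSSI and GBSSII. Watered libraries held 0.44, 0.36 and 0.28 FPKM in the hybrid, 0.71, 0.56 and 0.69 FPKM in Hanhui3 and 0.51, 0.54 and 0.44 FPKM in Huhan7B. Droughted ones held 0.1, 0.13 and 0.13 FPKM, 0.47, 0.42 and 0.43 FPKM and 0.51, 0.08 and 0.21 FPKM in the same order. Drought libraries were the lower ones in the hybrid and in Hanhui3, and overlapped with water in Huhan7B. With no filter on low values its log2 change was -0.28 in the hybrid (adjusted p = 0.0169), -0.20 in Hanhui3 (adjusted p = 0.104) and -0.25 in Huhan7B (adjusted p = 0.0384), at counts too low to support a fold. A neighbouring gene of the same product name, Os06g0133100, stood at 0 to 4.91 FPKM and is not counted in that share. How reads were divided between these too is uncertain.

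BEI, a branching enzyme that favours longer chains, rose in the hybrid and fell in Huhan7B. Hanyou73 had 58.6, 58.6 and 57.1 FPKM in water and 88.7, 92.6 and 90.8 FPKM under drought. Hanhui3 had 90.9, 97.4 and 100.04 FPKM in water and 101, 102 and 100.4 FPKM under drought, and Huhan7B had 79.8, 80.0 and 80.0 FPKM in water and 63.3, 59.4 and 56.3 FPKM under drought. Huhan7B was the genotype whose droughted libraries all lay below its watered ones, and in Hanhui3 the groups were separated by a narrow gap. BEI changed by 0.63 ± 0.041 in the hybrid (adjusted p = 1.25e-09) and by -0.42 ± 0.041 in Huhan7B (adjusted p = 3.91e-07). In Hanhui3 its change of 0.072 had a 95% interval of -0.015 to 0.16 (adjusted p = 0.154).

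BEIIa, the branching enzyme II form present in leaves as well as in grain, fell in Hanhui3 and rose in the other genotypes. Hanyou73 had 69.5, 71.4 and 65.2 FPKM in water and 121, 118 and 118 FPKM under drought. Hanhui3 had 96.7, 97.3 and 98.7 FPKM in water and 51.0, 50.3 and 47.9 FPKM under drought, and Huhan7B had 52.6, 52.4 and 56.1 FPKM in water and 75.7, 79.9 and 71.0 FPKM under drought. Hanhui3 went from the highest watered level to the lowest droughted one, and no water and drought libraries of a genotype overlapped. BEIIa changed by -0.96 ± 0.045 in Hanhui3 (adjusted p = 1.28e-10), by 0.79 ± 0.045 in the hybrid (adjusted p = 2.86e-10) and by 0.48 ± 0.045 in Huhan7B (adjusted p = 2.22e-07). Its listed length is 1170 bases beside 3554 for BEI, and its level relative to BEI depends on that length.

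**Figure D2:**
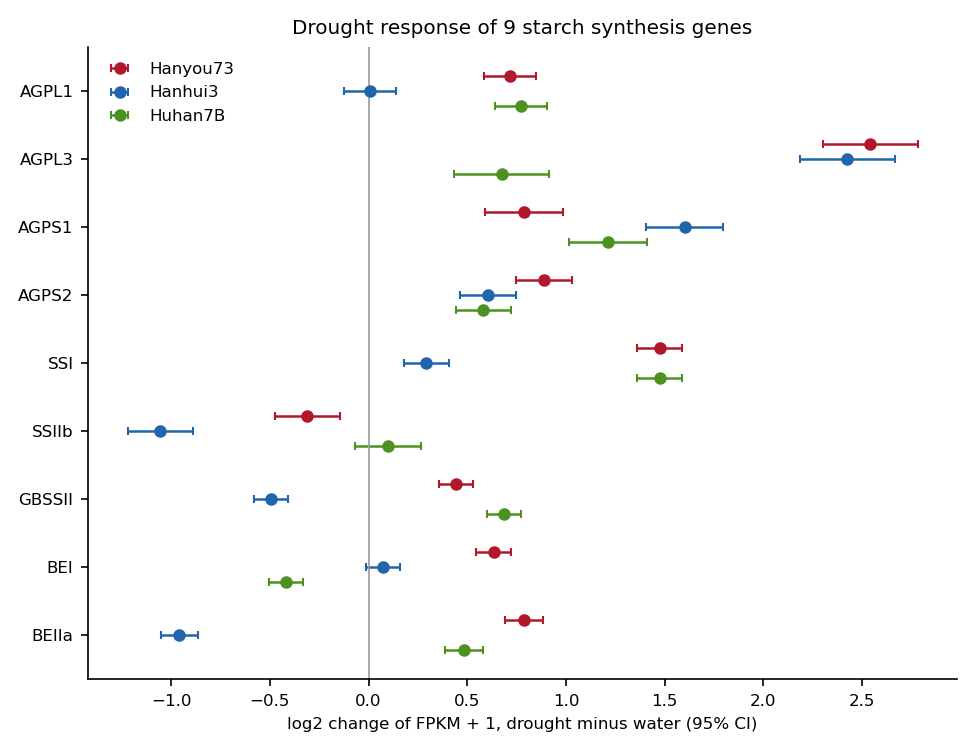
Drought response of the 9 tested genes, as the difference in log2(FPKM + 1) between drought and water, for each genotype, with 95% intervals from the limma fit. AGPL3 is highest in the hybrid (2.54) and in Hanhui3 (2.43), and BEIIa, GBSSII and SSIIb lie below 0 in Hanhui3.

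The balance of isoforms within a class is described by shares of FPKM, with the SD over 3 libraries. SSI made up 53.0 ± 2.89% of the soluble pair in the watered hybrid and 80.1 ± 2.35% under drought. In Hanhui3 the SSI share was 44.0 ± 1.23% and then 67.0 ± 1.00%, and in Huhan7B 28.7 ± 1.496% and then 51.9 ± 0.982%. The SSI share was higher under drought in all 3 genotypes, with SSI called higher in each and SSIIb called lower in the hybrid and in Hanhui3.

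The branching enzyme pair did not share a direction. BEIIa made up 50.4 ± 1.00% of the pair in watered Hanhui3 and 33.0 ± 0.655% under drought, while in Huhan7B the share was 40.2 ± 0.905% and then 55.9 ± 1.47%. The hybrid held 54.2 ± 0.802% in water and 56.8 ± 0.902% under drought. The parents moved in opposite directions, and the hybrid differed between its groups by less than either parent. The size of these shares depends on the listed length of BEIIa, 1170 bases beside 3554 for BEI.

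For ADP-glucose pyrophosphorylase, AGPL3 made up 2.01 ± 0.499% of the summed FPKM of AGPL1 and AGPL3 in the watered hybrid and 9.62 ± 1.25% under drought. The share was 2.02 ± 0.37% and 12.0 ± 0.829% in Hanhui3, and 3.18 ± 0.141% and 3.37 ± 0.185% in Huhan7B. AGPL2, a large subunit gene outside the 10, stood at 29.4 to 63.2 FPKM by group mean and is not counted in this share. AGPL1 stayed the main large subunit transcript in all 6 groups. Among small subunits AGPS1 held 25.2 ± 0.997% in the watered hybrid and 24.4 ± 1.64% under drought, beside 3.66 to 7.72% in the parents' groups. AGPL1 and AGPL3 together made up 64.5 to 65.3% of the FPKM of the 4 subunit genes in the hybrid. The range was 53.9 to 56.4% in Huhan7B and 39.7 to 48.4% in Hanhui3.

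**Figure D3:**
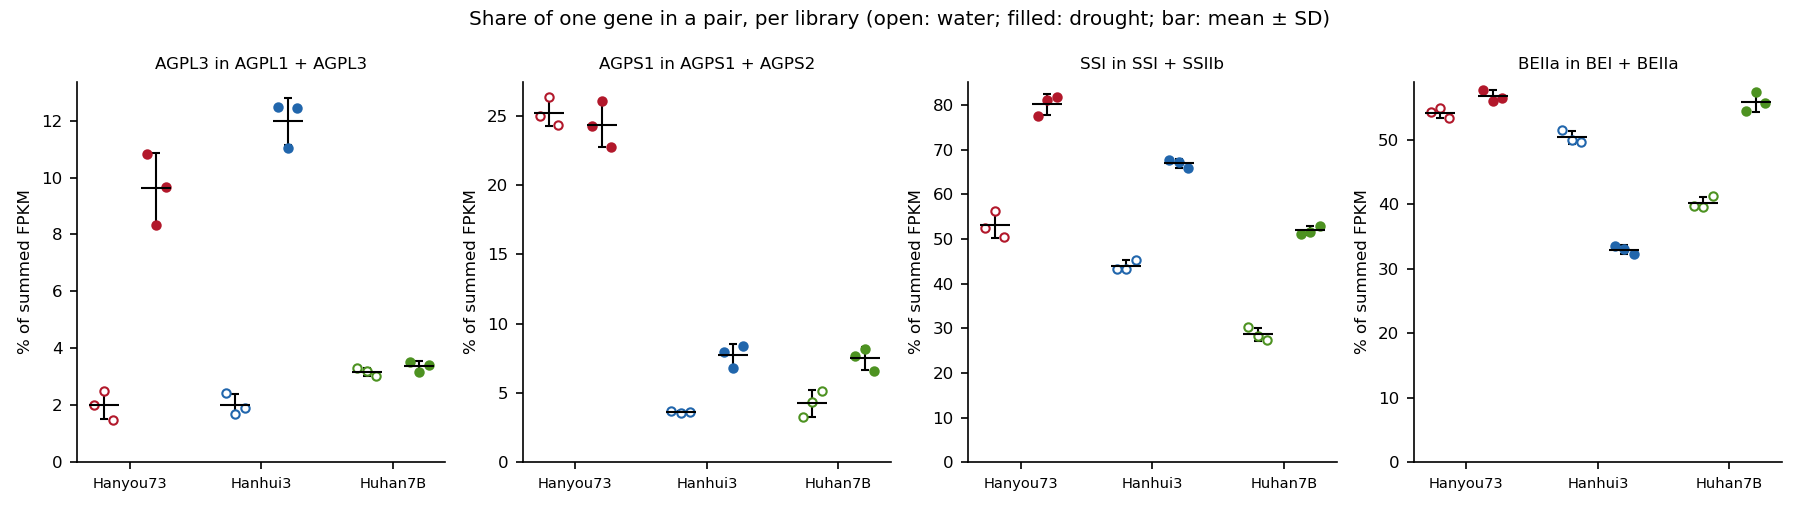
Share of a gene within its isoform pair, in percent of the pair's summed FPKM, in each group; open points are watered and filled points droughted libraries, and bars the mean ± SD of 3. The SSI share is higher under drought in all 3 genotypes, while the BEIIa share goes down in Hanhui3 (50.4 to 33.0%) and up in Huhan7B (40.2 to 55.9%). The size of the BEIIa share depends on the listed length of that gene.

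Summed over the 10 genes, the hybrid had 326 ± 1.33 FPKM in water and 564 ± 6.19 under drought. Hanhui3 had 868 ± 26.9 and 874 ± 3.51, and Huhan7B had 405 ± 3.97 and 577 ± 16.0. The near equal sums in Hanhui3 hid opposite movements, since the 4 pyrophosphorylase genes went from 348 to 474 FPKM while the 4 synthase genes went from 326 to 249 and the branching enzyme pair from 194 to 151. In Huhan7B the pyrophosphorylase genes went from 151 to 249 FPKM and the synthases from 120.1 to 192, with the branching enzymes at 134 and 135. In the hybrid all 3 sums were higher under drought, at 239, 115 and 209.8 FPKM after 132, 67.9 and 127. Synthase and branching enzyme genes outside the 10 are not counted in these sums. Of those, SSIIIB fell in the hybrid from 43.2 to 11.7 FPKM, and the branching enzyme gene Os06g0367100 rose there (log2 change 0.87 with median-ratio scaling). The branching enzyme sum also depends on the listed length of BEIIa.

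Markers of the secondary wall and of the leaf were also followed under drought. The secondary wall cellulose synthase genes CESA4, CESA7 and CESA9 summed to 36.6 to 37.9 FPKM in the droughted hybrid and to at most 1.34 FPKM in any library of the other groups. Their part in the hybrid's starch gene response was not tested. Of the 26 tested leaf marker genes, 14 rose and 10 fell in the hybrid, 9 rose and 7 fell in Hanhui3 (7 and 9 with median-ratio scaling), and 21 rose and 0 fell in Huhan7B (median log2 change 0.49). Of all tested genes 45% were called upward and 25.7% downward in the hybrid, 35.1% and 18.4% in Hanhui3 and 21.2% and 32.1% in Huhan7B. The part of the leaf markers in the Huhan7B response was likewise not tested.

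The responses themselves were compared by interaction contrasts. Between the parents, the response of Hanhui3 exceeded that of Huhan7B for 3 genes and was below it for 5, against 53.3% of all genes called, 36.2% upward and 17.1% downward. AGPL3 responded more in Hanhui3, by 1.75 ± 0.16 (adjusted p = 2.61e-07). BEIIa, GBSSII, SSI and SSIIb had lower responses there, with differences of -1.44 ± 0.064 (adjusted p = 1.06e-10), -1.18 ± 0.058 (adjusted p = 3.17e-10), -1.18 ± 0.076 (adjusted p = 6.01e-09) and -1.16 ± 0.11 (adjusted p = 4.01e-07).

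AGPL1 also had the lower response in Hanhui3, with a difference of -0.77 ± 0.088 (adjusted p = 3.09e-06), and BEI the higher one, by 0.49 ± 0.058 (adjusted p = 4.26e-06). AGPS1 passed narrowly at 0.39 ± 0.13 (adjusted p = 0.0206). That call was lost with a pseudocount of 0.1 (adjusted p = 0.135) or 0.5 (0.0561), with median-ratio scaling (0.259), without Hanhui3 drought replicate 3 (0.0585) and without Huhan7B water replicate 2 (0.0555) or 3 (0.0534). For AGPS2 the difference in response was 0.024, with a 95% interval of -0.17 to 0.22 (adjusted p = 0.85). Of all upward and downward calls in this contrast, 67.9% were upward, and 47.3% with median-ratio scaling, where the starch genes divided as 2 up and 5 down.

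The hybrid's response was set against the mean of the parental responses, and 7 genes exceeded it while AGPS1 was below it, against 58.3% of all genes called, 38.8% upward and 19.5% downward. BEIIa exceeded the parental mean by 1.02 ± 0.055 (adjusted p = 4.26e-10), AGPL3 by 0.99 ± 0.14 (adjusted p = 1.82e-05) and BEI by 0.81 ± 0.05 (adjusted p = 2.21e-09). SSI followed at 0.59 ± 0.066 (adjusted p = 1.77e-06) and GBSSII at 0.35 ± 0.05 (adjusted p = 2.55e-05). For BEIIa and GBSSII the parental mean averages a rise in Huhan7B and a fall in Hanhui3, and for BEI a fall in Huhan7B and a change near 0 in Hanhui3.

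AGPS1 responded less in the hybrid, with a difference of -0.62 ± 0.11 (adjusted p = 0.000241), from a higher watered level than in either parent. AGPL1 at 0.33 ± 0.076 (adjusted p = 0.00182) and AGPS2 at 0.29 ± 0.081 (adjusted p = 0.00564) lost their calls with median-ratio scaling (adjusted p = 0.0782 and 0.22). The value for SSIIb was 0.17, with a 95% interval of -0.033 to 0.37 (adjusted p = 0.139). Upward calls were 66.5% of all calls and 49.4% with median-ratio scaling, where the starch genes divided as 5 up and 1 down.

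In water Hanhui3 was above Huhan7B for 9 of the 9 tested genes, where 66.4% of all genes were called, 25.3% with Hanhui3 higher and 41.2% with it lower. SSI differed most, at 81.1 ± 2.62 FPKM against 17.6 ± 1.63 FPKM (SD, n = 3, log2 difference 2.15 ± 0.054, adjusted p = 1.03e-14). AGPS2 stood at 173 ± 5.06 FPKM against 67.0 ± 6.98 FPKM (1.36 ± 0.066, adjusted p = 3.7e-11), and GBSSII at 141 ± 4.74 FPKM against 58.3 ± 1.43 FPKM (1.26 ± 0.041, adjusted p = 2.55e-13). SSIIb, AGPL1, AGPS1 and BEIIa differed by 0.85 to 1.22 and BEI by 0.26.

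The smallest margin was that of AGPL3, whose difference of 0.29 ± 0.11 (adjusted p = 0.0351) did not pass without Hanhui3 water replicate 1 (0.22, adjusted p = 0.14) or 3 (0.26, adjusted p = 0.0872). It also did not pass without Huhan7B water replicate 1 (0.28, adjusted p = 0.073), 2 (0.31, adjusted p = 0.0514) or 3 (0.27, adjusted p = 0.0849). Of the 26 tested leaf marker genes 23 were also higher in Hanhui3 and 1 was lower, with a median difference of 0.63, and their part in the starch gene difference was not tested. Upward calls were 38% of all calls in this contrast and 50.8% with median-ratio scaling, where 9 of the 9 starch genes were again higher.

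Under drought Hanhui3 was higher for 6 genes and lower for BEIIa, against 58.9% of all genes called, 32% higher and 26.9% lower. AGPL3 stood at 22.6 ± 1.71 FPKM against 4.74 ± 0.424 FPKM (2.04 ± 0.11, adjusted p = 2.89e-10) and BEIIa at 49.7 ± 1.63 FPKM against 75.5 ± 4.46 FPKM (-0.59 ± 0.045, adjusted p = 1.43e-08). For SSIIb and GBSSII the differences were 0.065 (95% interval -0.10 to 0.23, adjusted p = 0.499) and 0.076 (-0.011 to 0.16, adjusted p = 0.124), both within overlapping libraries.

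The watered hybrid lay under the mean of its parents for most starch genes. Against the mid-parent value, the mean of the parents' log2 levels, 7 genes were lower and AGPS1 was higher, where 67.2% of all genes were called, 23.5% lower and 43.7% higher. GBSSII was lower by 1.85 in log2 (difference -1.85 ± 0.035, adjusted p = 2.91e-16), SSIIb had a difference of -1.69 ± 0.067 (adjusted p = 2.47e-12) and AGPS2 one of -1.63 ± 0.057 (adjusted p = 5.23e-13). AGPS1 was higher by 1.197 ± 0.08 (adjusted p = 1.68e-09). For BEIIa the difference was -0.076 (95% interval -0.16 to 0.0071, adjusted p = 0.0979). With median-ratio scaling it was -0.22 (adjusted p = 0.000134), and with equal FPKM sums 0.058 (adjusted p = 0.234).

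Parent by parent, the watered hybrid was higher than Hanhui3 for 1 gene and lower for 8, where 70% of all genes were called, 46.7% higher and 23.3% lower. It was higher than Huhan7B for AGPS1, SSI and BEIIa and lower for 5 genes, where 65% were called, 37.1% higher and 27.9% lower. Called against each parent in the same direction, AGPL3, AGPS2, SSIIb, GBSSII and BEI were below both parents in water and AGPS1 was above both, 6 of the 9 genes against 38.9% of all genes, 12.5% below and 26.4% above. AGPS2 in the watered hybrid stood at 34.1 ± 1.28 FPKM, beside 67.0 ± 6.98 FPKM in the lower parent Huhan7B. GBSSII stood at 24.5 ± 1.17 FPKM beside 58.3 ± 1.43 FPKM, and SSIIb at 20.2 ± 2.00 FPKM beside 43.7 ± 1.59 FPKM. AGPS1 at 11.5 ± 0.739 FPKM was above its higher parent Hanhui3, at 6.57 ± 0.25 FPKM.

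Under drought the hybrid was higher than Hanhui3 for BEIIa and lower for 7 genes, where 68.1% of all genes were called, 52.2% higher and 15.9% lower. It was higher than Huhan7B for AGPL3, AGPS1, SSI, BEI and BEIIa and lower for AGPS2, SSIIb and GBSSII, where 72% were called, 56% higher and 16% lower. AGPL1 was not called against Huhan7B at 0.037 ± 0.062 (adjusted p = 0.607), and with median-ratio scaling it was lower (-0.31, adjusted p = 0.00021). AGPS1 was not called against Hanhui3 at -0.091 ± 0.092 (adjusted p = 0.396), and with that scaling it was lower (-0.37, adjusted p = 0.00251). The SSI call against Huhan7B was lost with median-ratio scaling (0.016, adjusted p = 0.792). The 9 genes divided evenly around the mid-parent value, with 4 higher and 4 lower, where 72.7% of all genes were called, 58.4% higher and 14.3% lower. AGPS2, SSIIb and GBSSII were still lower, with differences of -1.33 ± 0.057, -1.52 ± 0.067 and -1.501 ± 0.035 (adjusted p = 7.89e-12, 1.14e-11 and 5.35e-15), and these 3 were below both parents. BEIIa was higher by 0.95 ± 0.039 (adjusted p = 4.82e-12) and was above both parents, at 119 ± 1.96 FPKM beside 75.5 ± 4.46 FPKM in Huhan7B. These 4 genes outside both parents compare with 47% of all genes, 7.83% below and 39.2% above.

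AGPS1 was higher than mid-parent by 0.58 ± 0.08 (adjusted p = 8.99e-06). AGPL3 was higher by 0.44 ± 0.10 (adjusted p = 0.000846), a call lost with median-ratio scaling (0.14, adjusted p = 0.225). BEI was higher by 0.22 ± 0.035 (adjusted p = 3.85e-05) and became lower with that scaling (-0.095, adjusted p = 0.0114). SSI was lower, with a difference of -0.12 ± 0.046 (adjusted p = 0.027), and this call was lost without Hanyou73 drought replicate 1 (-0.091, adjusted p = 0.143), Hanhui3 drought replicate 3 (-0.12, adjusted p = 0.0505) or Huhan7B drought replicate 1 (-0.11, adjusted p = 0.0564) and with equal FPKM sums (-0.063, adjusted p = 0.22). The AGPL1 value of -0.11 ± 0.054 (adjusted p = 0.0853) passed with median-ratio scaling (-0.43, adjusted p = 1.77e-06) and without Huhan7B drought replicate 3 (-0.13, adjusted p = 0.0486).

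The median of all tested genes was 0.14 above mid-parent in water and 0.31 above it under drought, and 0.017 and 0.033 with median-ratio scaling. Upward calls went with that scaling from 65% to 52.6% of all calls in water, with the starch genes at 1 higher and 8 lower. Under drought they went from 80.3% to 54.2%, with the starch genes at 2 higher and 6 lower.

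Most leaf markers were lower than mid-parent in the hybrid in both conditions. The starch genes were mostly lower in water and divided evenly under drought. With median-ratio scaling 2 starch genes were higher and 6 lower under drought, beside 1 and 23 of the leaf markers. For the unscaled values the shares of all genes called are those given above for the mid-parent value. In water 25 of the 26 tested leaf marker genes were lower than mid-parent and 1 was higher, with a median of -1.70, and under drought 21 were lower and 2 higher, with a median of -1.57. Their summed level was 17491 to 18671 FPKM in the watered hybrid, 85575 to 94442 in watered Hanhui3 and 56854 to 57929 in watered Huhan7B. Under drought it was 25198 to 25574 FPKM in the hybrid, 90617 to 93285 in Hanhui3 and 74070 to 81434 in Huhan7B. Their part in the hybrid's starch gene levels was not tested.

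**Figure D4:**
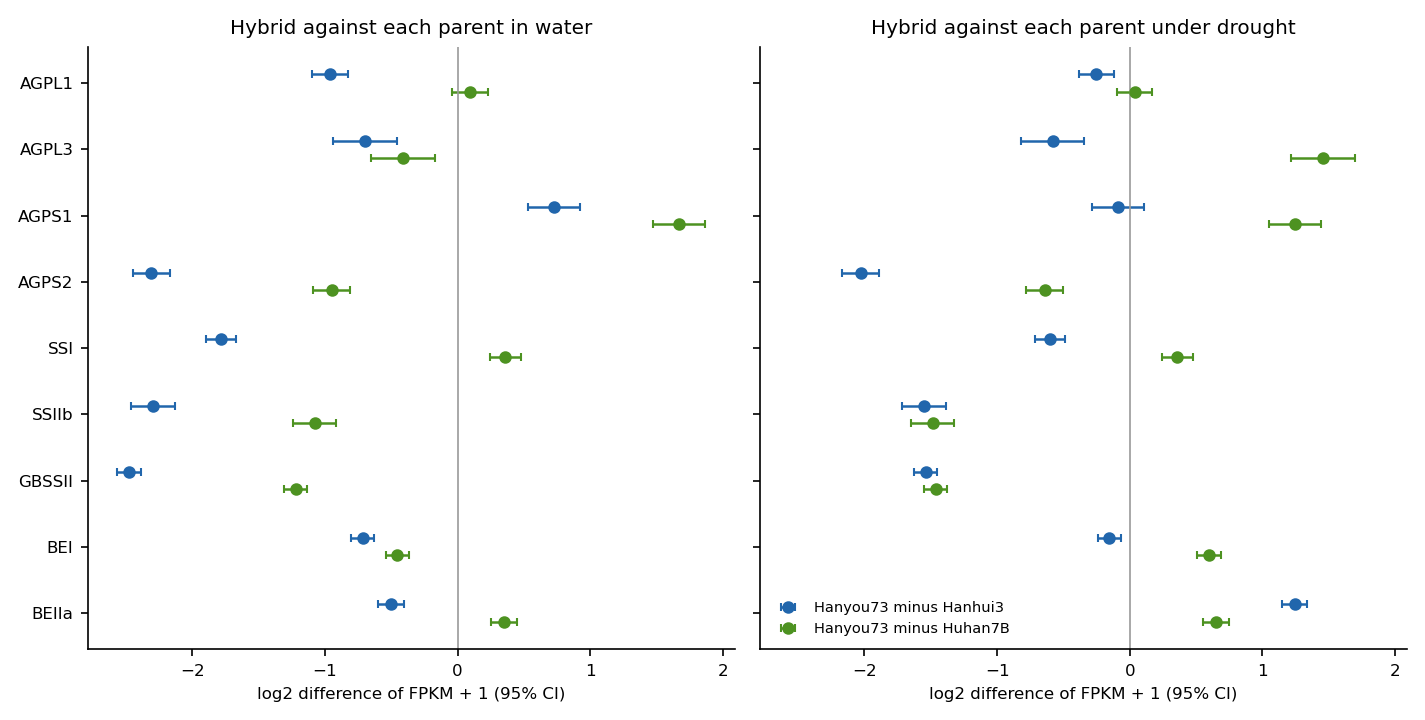
Difference between the hybrid and each parent in log2(FPKM + 1) for the 9 tested genes, in water and under drought. Bars are 95% intervals from the limma fit. GBSSII, SSIIb and AGPS2 lie below 0 against both parents in both conditions. AGPS1 lies above 0 against both parents in water, and BEIIa does so under drought (1.24 against Hanhui3 and 0.65 against Huhan7B).

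The order of the 6 group levels also differed from gene to gene. For AGPL3 and SSI no neighbouring groups in the order overlapped, with Hanhui3 under drought highest at 22.6 ± 1.71 FPKM and 99.5 ± 1.72 FPKM. Hanhui3 under drought was highest for AGPL1, AGPL3, AGPS1, AGPS2, SSI and BEI, although its watered libraries overlapped for AGPL1 and those of the droughted hybrid overlapped for AGPS1. SSIIb and GBSSII were highest in watered Hanhui3, and BEIIa was highest in the droughted hybrid. The ratio of the highest to the lowest group mean ran from 1.74 for BEI to 13.1 for AGPL3 among the tested genes.

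The genes whose 18 library values lay closest to those of each starch gene were sought by the root mean square difference in centred log2(FPKM + 1), for the 8 genes whose group means spanned at least 1. This is a description over libraries that share genotype and treatment. GBSSII and Os4NPP1, a chloroplast phosphoglycolate phosphatase, were the closest of these pairs at 0.069. AGPL1 lay nearest to Os03g0134300, a chloroplast ATP phosphoribosyltransferase, at 0.107, and SSIIb to Os01g0179800, a probable serine incorporator, at 0.157. AGPS2 lay nearest to the transcription factor gene OsTCP18 at 0.16 and BEIIa to Os05g0119350, itself at only 0.2 to 2.03 FPKM, at 0.206, followed by the glycolate oxidase gene GLO5 at 0.227. SSI and the ubiquitin ligase gene SIP23 were 0.247 apart, AGPS1 and the xyloglucan endotransglucosylase gene OsXTH24 0.263, and AGPL3 and OSINV3, annotated as a sucrose fructosyltransferase, 0.316.

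Other genes of starch synthesis, 33 listed and 20 tested, gave 12 up and 2 down in the hybrid (median 0.49), 10 up and 4 down in Hanhui3 (0.21) and 15 up and 1 down in Huhan7B (0.38). With median-ratio scaling the counts were 11 and 5, 8 and 5, and 15 and 1. The share of all genes called and their median are those given above for each genotype. The list was set by gene identifier and product name, and its debranching enzymes were not divided by a role in synthesis or breakdown. In the hybrid, the debranching enzyme gene ISA1, named OsPHS8 in the table, went from 14.0 ± 0.821 to 48.7 ± 0.742 FPKM (log2 change 1.73 ± 0.11, adjusted p = 1.16e-09). Its relative OsISA3 went from 5.33 ± 0.857 to 16.9 ± 0.373 FPKM (log2 change 1.51 ± 0.092, adjusted p = 6.45e-10). SSIIIB, a soluble synthase of class III, fell in the hybrid from 43.2 ± 0.545 to 11.7 ± 0.797 FPKM (log2 change -1.80 ± 0.044, adjusted p = 1.07e-14), and a chloroplast glucose-6-phosphate isomerase gene, Os09g0465600, from 63.9 ± 1.15 to 57.2 ± 2.21 FPKM (log2 change -0.16 ± 0.039, adjusted p = 0.00202).

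In Hanhui3 the pullulanase gene OsPUL, also a debranching enzyme, rose from 1.88 ± 0.132 to 5.46 ± 0.384 FPKM (log2 change 1.16 ± 0.091, adjusted p = 4.06e-08) and OsPHS8 from 1.63 ± 0.2 to 4.62 ± 0.613 FPKM (log2 change 1.09 ± 0.11, adjusted p = 8.03e-07). SSIIIA fell there from 4.97 ± 0.191 to 2.31 ± 0.156 FPKM (log2 change -0.85 ± 0.10, adjusted p = 2.13e-06), and Os06g0133100, the neighbour of GBSSI, from 2.73 ± 0.99 to 0.87 ± 0.435 FPKM (log2 change -0.99 ± 0.21, adjusted p = 0.00118). In Huhan7B the branching enzyme IIb gene, SBE3, rose from 1.36 ± 0.361 to 3.59 ± 0.486 FPKM (log2 change 0.97 ± 0.11, adjusted p = 2.76e-06) and the plastid phosphorylase gene Pho1 from 17.6 ± 0.958 to 30.2 ± 1.60 FPKM (log2 change 0.74 ± 0.058, adjusted p = 2.94e-08), while Os06g0133100 fell from 4.79 ± 0.115 to 1.25 ± 0.499 FPKM (log2 change -1.39 ± 0.21, adjusted p = 5.27e-05). In each genotype more genes of the list rose than fell, while the log2 change of OsPUL was 0.005 in the hybrid (adjusted p = 0.967) and 0.13 in Huhan7B (adjusted p = 0.255).

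Starch breakdown genes, 42 listed and 26 tested, gave 18 up and 4 down in the hybrid (median 0.55), 13 up and 6 down in Hanhui3 (0.32) and 13 up and 4 down in Huhan7B (0.15), and 16 and 6, 12 and 6, and 15 and 1 with median-ratio scaling. Of all tested genes 45%, 35.1% and 21.2% were called upward and 25.7%, 18.4% and 32.1% downward, in the same order. Their medians were 0.18, 0.10 and -0.065. The alpha-amylase gene Amy2A-RAmy2A rose in the hybrid from 2.03 ± 0.545 to 8.98 ± 0.888 FPKM (log2 change 1.73 ± 0.12, adjusted p = 2.91e-09), and the chloroplast beta-amylase gene Os10g0565150 from 23.6 ± 0.798 to 79.3 ± 4.10 FPKM (log2 change 1.71 ± 0.092, adjusted p = 1.42e-10). In Hanhui3 the chloroplast alpha-amylase gene OsSTA30 rose from 4.02 ± 0.436 to 18.7 ± 0.315 FPKM (log2 change 1.98 ± 0.067, adjusted p = 4.05e-12) and the alpha-amylase gene Os05g0446900 from 4.83 ± 0.11 to 12.2 ± 0.915 FPKM (log2 change 1.18 ± 0.087, adjusted p = 2.29e-08). In Huhan7B the chloroplast beta-amylase gene OsSTA246 rose from 9.07 ± 1.13 to 40.2 ± 5.41 FPKM (log2 change 2.03 ± 0.11, adjusted p = 3.27e-10) and Os03g0351300, annotated as an inactive beta-amylase, from 2.25 ± 0.368 to 8.87 ± 1.42 FPKM (log2 change 1.60 ± 0.17, adjusted p = 1.06e-06).

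Among the breakdown genes that fell, the beta-amylase gene Os07g0543100 changed in the hybrid from 11.2 ± 0.737 to 5.36 ± 0.282 FPKM (log2 change -0.94 ± 0.10, adjusted p = 5.07e-07) and in Hanhui3 from 15.2 ± 2.10 to 7.57 ± 0.87 FPKM (log2 change -0.92 ± 0.10, adjusted p = 1.67e-06). The phosphoglucan water dikinase gene Os01g0856900, for an enzyme that phosphorylates starch, fell in the hybrid from 31.0 ± 0.45 to 18.3 ± 1.25 FPKM (log2 change -0.73 ± 0.065, adjusted p = 5.81e-08) and in Hanhui3 from 27.6 ± 1.42 to 16.6 ± 0.745 FPKM (log2 change -0.70 ± 0.065, adjusted p = 2.59e-07). In Huhan7B the phosphoglucan phosphatase gene OsPP117 fell from 33.0 ± 0.784 to 26.5 ± 0.456 FPKM (log2 change -0.31 ± 0.043, adjusted p = 1.74e-05) and the beta-amylase gene Os02g0129600 from 11.8 ± 1.12 to 9.42 ± 0.794 FPKM (log2 change -0.29 ± 0.084, adjusted p = 0.00802). With median-ratio scaling OsPP117 kept its call (-0.20, adjusted p = 0.00145) and Os02g0129600 did not (-0.19, adjusted p = 0.064).

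Of 5 genes listed as regulators of starch synthesis, 3 were tested. CRCT, which in rice promotes starch storage in leaf sheaths, rose in all 3 genotypes, in the hybrid from 105 ± 3.06 to 158 ± 8.50 FPKM (log2 change 0.59 ± 0.046, adjusted p = 1.28e-08), in Hanhui3 from 103 ± 5.67 to 182 ± 3.81 FPKM (log2 change 0.82 ± 0.046, adjusted p = 1.03e-09) and in Huhan7B from 97.4 ± 4.13 to 133 ± 2.71 FPKM (log2 change 0.44 ± 0.046, adjusted p = 7.62e-07). FLO2, needed for normal starch in the rice grain, rose in the hybrid from 104 ± 5.05 to 198 ± 4.76 FPKM (log2 change 0.92 ± 0.038, adjusted p = 4.88e-12) and in Huhan7B from 112 ± 2.80 to 179 ± 6.17 FPKM (log2 change 0.67 ± 0.038, adjusted p = 6.09e-10). RSR1, a repressor of starch synthesis genes in the rice grain, fell in the hybrid from 233 ± 7.67 to 181 ± 3.39 FPKM (log2 change -0.36 ± 0.071, adjusted p = 0.00031) and in Hanhui3 from 378 ± 55.4 to 307 ± 2.42 FPKM (log2 change -0.29 ± 0.071, adjusted p = 0.00298).

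**Figure D5:**
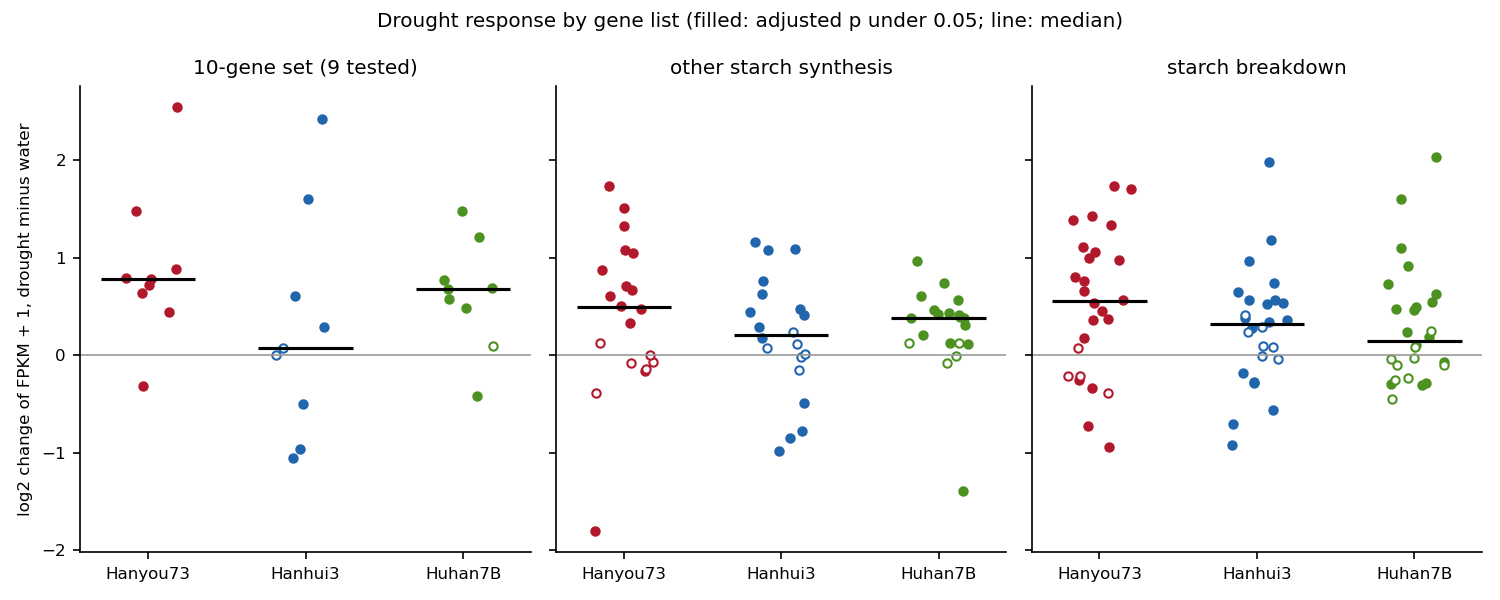
Drought response in log2(FPKM + 1) of the 9 tested genes, of other starch synthesis genes and of starch breakdown genes in each genotype; each point is a gene, filled where called, and the line is the median. The breakdown median is 0.55 in the hybrid, 0.32 in Hanhui3 and 0.15 in Huhan7B.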

How the data were processed

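Polyadenylated RNA of 18 strand-specific libraries was sequenced, per the labels' protocols. Per the submitters' processing notes, the tools were DESeq2, RSEM, StringTie, HISAT2 and fastp, with the genome build IRGSP-1.0, and versions are not given in the sources used here. The values deposited by the authors were taken as FPKM, inferred from them since the header names no unit. They sum to 958893 to 1140989 per library. Counts were not used here. Depth was estimated from the steps of low values with 310 bases taken off the length, and 76.1% to 80.2% of low values were then whole within 0.1, so the estimate is approximate.

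Genes with an FPKM of at least 1 in 3 libraries were kept, 1017 structural RNA genes left out, and a linear model of log2(FPKM + 1) with 6 group means was fitted by limma-trend (limma 3.58.1, R 4.3.3). Contrasts were two-sided and Benjamini-Hochberg adjusted over 22590 genes. The code was tested on simulated data. The 10 genes and the gene lists were chosen with earlier results of these data known. Pathway genes are named by rule, up to 2 called per direction, list and genotype with the largest change. Of the 10 genes 8 matched a RefSeq table of another assembly, so no coordinates are given, and no sequence is shown. Alternatives were other pseudocounts, filters, scalings, a replicate block, only the groups compared, and leaving out each library. Replicate numbers did not pair libraries.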

Additional observations from a re-analysis of the deposited data

Results flagged for a closer look

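For 8 of the 9 tested genes the hybrid's drought response differed from the mean of the parents' responses, and for 8 the parents' responses differed from each other, each by the interaction test of the limma fit (adjusted p under 0.05). 58.3% and 53.3% of all tested genes did so.

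Hybrid against the parental mean, the difference in log2 response was 0.33 for AGPL1, 0.99 for AGPL3 and -0.62 for AGPS1. It was 0.29 for AGPS2, 0.59 for SSI, 0.35 for GBSSII, 0.81 for BEI and 1.02 for BEIIa. AGPS1 was the 1 gene with a weaker response in the hybrid.

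Hanhui3 against Huhan7B, the difference was -0.77 for AGPL1, 1.75 for AGPL3 and 0.39 for AGPS1. It was -1.18 for SSI, -1.16 for SSIIb, -1.18 for GBSSII, 0.49 for BEI and -1.44 for BEIIa. AGPL3, AGPS1 and BEI had the higher response in Hanhui3 and the other 5 in Huhan7B. The values share libraries, and no group of 3 libraries was searched for a library standing apart.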

How the results depend on the processing

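No total of called starch genes moved by more than 1.5 times under any alternative. By direction, the genes above mid-parent in the droughted hybrid went from 4 to 2 with median-ratio scaling, and the falls in the hybrid and in Huhan7B each from 1 to 2 with no filter, which adds GBSSI. In a balanced design the replicate block cannot move an estimate (AGPL3 in the hybrid is 2.54 either way), and it changed no call among the 117 values of the 9 genes over 13 contrasts. Same-numbered libraries did not deviate together (correlation -0.0874 to 0.091 over 45 pairs, 8 of 18 libraries closest to their own number), so numbers are not read as pairs. Restricting the fit to the groups compared was not possible for the hybrid against the parental mean response, which uses all 6 groups. It ended the AGPL3 difference of the watered parents (adjusted p = 0.056), as did no filter (0.0513) and equal sums (0.0762).

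Median-ratio scaling reversed AGPL1 (-0.12) and BEI (-0.053) in Hanhui3, the parents' response difference of AGPS2 (-0.21), the mid-parent difference of BEI under drought (-0.095) and the hybrid against Huhan7B for AGPL1 under drought (-0.31). Equal FPKM sums reversed AGPL1 in Hanhui3 (-0.061), the AGPS2 response difference (-0.013), BEIIa against mid-parent in water (0.058), SSIIb and GBSSII between the droughted parents (-0.018 and -0.0080) and AGPS1 between the droughted hybrid and Hanhui3 (0.0064). Of these, BEI was a call before, and after turning BEI and AGPL1 against Huhan7B were calls (adjusted p = 0.0114 and 0.00021). AGPS1 of the droughted hybrid against Hanhui3 became a call with median-ratio scaling (-0.37, adjusted p = 0.00251) and AGPL1 of the watered hybrid against Huhan7B with equal sums (0.20, adjusted p = 0.00526), which ended that of BEI of the droughted hybrid against Hanhui3 (adjusted p = 0.227). Without 1 library, AGPL1 in Hanhui3 ran from -0.048 to 0.064, the AGPS2 response difference from -0.026 to 0.11 and AGPL1 of the droughted hybrid against Huhan7B from -0.0038 to 0.098. The causes were not tested. Lower calls among breakdown genes in Huhan7B went from 4 to 1 with median-ratio scaling. Depth limits GBSSI most.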

Other observations

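More starch breakdown genes were above than below the mid-parent value in the hybrid. In water 16 of 26 tested breakdown genes were higher in the hybrid and 5 lower, where 43.7% of all tested genes were higher and 23.5% lower. Under drought 20 were higher and 4 lower, where 58.4% and 14.3% of all genes were. With median-ratio scaling the counts were 14 and 7 in both conditions. The neighbouring beta-amylase genes Os10g0565150 and Os10g0565200, with the same product name, had differences from mid-parent of 3.46 ± 0.08 and 3.62 ± 0.16 in log2(FPKM + 1) under drought (adjusted p = 4.14e-15 and 1.67e-11, limma). They were chosen after their values were seen, and reads may have been divided between them.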
